A study of Mus musculus with 8 samples.

Results

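The genes described here are 41 genes of the cell cycle, measured by RNA sequencing in mouse ear epidermis. They were taken by name from a fixed list, which was drawn up with earlier results of these data known. Of them, 24 act in G2 and mitosis (called mitotic below) and 17 act at the G1/S boundary and in DNA replication (called replication below). All 41 were found among the 51912 gene identifiers of the count files, and all 41 were among the 16512 genes with enough counts to be tested, so no member was lost to the filter. The 8 samples were ear epidermal sheets from 8 different mice, all 8 weeks old and all carrying the A20F/F genotype, that is, conditional alleles of Tnfaip3, the gene of the ubiquitin-editing enzyme A20. The 4 A20KIKO mice were Krt5-CreERT2+ and the 4 A20WT mice were Krt5-CreERT2-. The promoter of the basal keratinocyte keratin Krt5 thus drove a tamoxifen-dependent Cre in the first group, and cells that do not use this promoter would keep their alleles. Tamoxifen (1 mg into the peritoneum, on each of 2 days in a row) was given to all 8 mice, the controls too, and the tissue was taken 7 days after the first dose. The Cre itself differs between the groups along with the deletion, and their effects cannot be told apart.

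Cells divide in an ordered programme that is driven by cyclins bound to cyclin-dependent kinases. At G1/S, E2F transcription factors turn on the genes that license and copy DNA, among them the Mcm helicase, the sliding clamp Pcna and the enzymes that make deoxynucleotides. In G2 a later set of genes, controlled by the MuvB complex with Mybl2 and Foxm1, builds the spindle, the kinetochores and the machinery that separates the chromosomes. In the interfollicular epidermis these genes are used mainly by dividing keratinocytes of the basal layer, while resident and incoming immune cells and hair follicle cells can also divide. In sheets of mixed cells, more dividing cells and more RNA per dividing cell cannot be told apart.

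The mitotic and replication genes differ in the promoter elements that textbooks assign to them, and these were looked up in the RefSeq sequences of GRCm38.p6, in windows of 300 bases from 250 before to 50 after the transcription start. A window was found for 33 of the 41 genes, 19 mitotic and 14 replication. Each window was searched on both strands for the cell cycle homology region (CHR, TTTGAA), the E2F site (TTTCGCGC or TTTGGCGC) and the CCAAT box (CCAAT). Matches may share letters, as CCAAT boxes on opposite strands do in Ube2c and E2F sites in Mcm5 and Mcm6, and a gene counted once however many matches it had. The CHR was present in 14 of 19 mitotic promoters (73.7%) and in 2 of 14 replication promoters (14.3%), beside 20.2% of the 27025 genes with a window in the table and 14.9% of the tested genes among them. The E2F site was present in 1 mitotic promoter (5.26%) and 5 replication promoters (35.7%), beside 0.929% of all genes. Among the replication genes without a match, the E2f1 and Cdc6 windows lie inside the annotated gene. The sequence before those annotated gene starts was not searched, nor was any spelling of the E2F site other than those given above. A CCAAT box was present in 17 mitotic (89.5%) and 9 replication promoters (64.3%), beside 41.1% of all genes. Every mitotic promoter with a CHR also held a CCAAT box, a pair found in 7.97% of all genes. A match describes letters in the window and is not evidence of a bound factor.

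The 160 bases before the start are shown for the mitotic genes Top2a, Kif11 and Cdk1, whose expression differences are followed below, 5′ to 3′ along the gene, with the motifs above in capitals on either strand. In GRCm38.p6 the Top2a stretch lies at chr11:99024190-99024349 on the minus strand, Kif11 at chr19:37376222-37376381 on the plus strand and Cdk1 at chr10:69352913-69353072 on the minus strand. In each of them a CHR sits close to the start with at least 1 CCAAT box before it, and Cdk1 also holds an E2F site.
Top2a: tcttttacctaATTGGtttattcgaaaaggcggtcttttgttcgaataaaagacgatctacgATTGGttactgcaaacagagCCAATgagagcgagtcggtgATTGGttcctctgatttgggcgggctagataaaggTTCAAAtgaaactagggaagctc
Kif11: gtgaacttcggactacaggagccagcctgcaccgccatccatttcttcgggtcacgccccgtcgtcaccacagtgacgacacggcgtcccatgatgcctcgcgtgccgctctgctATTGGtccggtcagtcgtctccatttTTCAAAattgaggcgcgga
Cdk1: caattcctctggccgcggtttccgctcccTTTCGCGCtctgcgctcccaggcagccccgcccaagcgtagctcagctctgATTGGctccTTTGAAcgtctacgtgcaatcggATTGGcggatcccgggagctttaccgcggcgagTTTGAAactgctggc

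For contrast, the same stretch is shown for the replication genes Mcm5 and Mcm6, which hold E2F sites, and for Rrm2 and Rrm1, the replication genes with the smallest p-values, which hold CCAAT boxes and neither a CHR nor an E2F match in the window. The Mcm5 stretch lies at chr8:75109349-75109508 on the plus strand, Mcm6 at chr1:128359706-128359865 on the minus strand, Rrm2 at chr12:24708094-24708253 on the plus strand and Rrm1 at chr7:102441535-102441694 on the plus strand. In Mcm5 and in the first of the Mcm6 matches the E2F letters read on both strands of the same stretch.
Mcm5: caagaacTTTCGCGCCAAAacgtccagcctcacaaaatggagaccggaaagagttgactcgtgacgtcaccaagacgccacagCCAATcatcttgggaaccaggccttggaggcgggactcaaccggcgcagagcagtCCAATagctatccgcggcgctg
Mcm6: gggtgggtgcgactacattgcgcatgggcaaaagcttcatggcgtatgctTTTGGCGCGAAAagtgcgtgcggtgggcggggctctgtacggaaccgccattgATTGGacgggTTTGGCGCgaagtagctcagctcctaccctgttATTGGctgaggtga
Rrm2: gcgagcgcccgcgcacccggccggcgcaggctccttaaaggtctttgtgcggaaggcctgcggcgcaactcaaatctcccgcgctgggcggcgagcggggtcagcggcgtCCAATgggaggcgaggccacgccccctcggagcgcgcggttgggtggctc
Rrm1: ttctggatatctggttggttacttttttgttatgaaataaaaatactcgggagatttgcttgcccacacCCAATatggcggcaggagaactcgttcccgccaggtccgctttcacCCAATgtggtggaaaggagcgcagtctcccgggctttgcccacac

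The libraries held 40451075 to 89106039 counts in the A20KIKO group and 52972464 to 89624373 in the A20WT group. Keratinocyte markers were by far the most abundant of the cell type markers: the 10 basal ones summed to 23760 to 29390 CPM (counts scaled to a fixed library total) in the A20KIKO and 32160 to 42110 CPM in the A20WT libraries, while 9 fibroblast markers summed to 34.2 to 75.8 CPM and 9 endothelial and mural markers to 2.13 to 5.47 CPM over all 8. The count of Tnfaip3 covers the whole gene and was higher in the libraries labelled A20KIKO (74.0 ± 17.3 against 16.5 ± 2.65 CPM, mean ± SD, n = 4 each), so it does not check the deletion. A20WT mouse 1 stood apart by transcript length. Against each gene's mean over the 8 libraries, genes with transcripts under 1 kilobase were shifted by a median of 0.44 log2 units in that library and genes of 4 to 8 kilobases by -0.32. In the other 7 libraries these medians lay between -0.31 and 0.10 for the short and between -0.03 and 0.19 for the long genes. Both the -0.31 and the 0.19 were in A20WT mouse 2, whose trend with length ran the opposite way to that of mouse 1.

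In A20WT libraries the mitotic genes had means of 5.995 (Bub1) to 89.1 CPM (Cdc20) and the replication genes 7.88 (Ccne1) to 159.6 CPM (Mcm6). Levels of different genes are comparable only per length, and on the scale of CPM per kilobase of principal transcript the sliding clamp Pcna was highest in the A20WT libraries, at 62.0 ± 9.05 (SD, n = 4). The helicase subunit Mcm6 followed at 54.8 ± 7.09, the mitotic exit activator Cdc20 at 49.7 ± 7.51 and the survivin gene Birc5 at 43.3 ± 17.5, and each of these neighbours lay within the spread of the next. The 3 lowest were the licensing factor Cdc6 at 1.93 ± 0.159, the checkpoint kinase Bub1 at 1.75 ± 0.226 and the kinetochore motor Cenpe at 1.58 ± 0.302 CPM per kilobase. The median was 8.62 CPM per kilobase for the 24 mitotic and 19.4 for the 17 replication genes. Mki67, whose protein Ki-67 is the usual histological mark of dividing cells, was also low on this scale, at 3.12 ± 0.438.

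Mitotic genes were modestly higher in the A20KIKO libraries as a group, with no single gene past the test. Of the 24, 23 had a log2 change above 0 (A20KIKO minus A20WT, from edgeR), beside 49.0% of all tested genes, and the median was 0.34, or 1.27-fold, beside -0.01 over all tested genes. None of the 41 genes was called changed at an adjusted p under 0.05 by edgeR's quasi-likelihood test, where 3.49% of tested genes were. On simulated counts this test recovered 9.59% of 73 genes changed 1.5-fold. Those genes were drawn at random from all tested genes, so the rate need not hold for these 41. At an unadjusted p under 0.05, 11 mitotic genes were higher and 0 lower, beside 8.48% and 6.92% of tested genes, and of the replication genes 4 were higher and 1 lower. The 4 libraries of a group did not overlap with those of the other, with A20KIKO higher, in 6 mitotic and 2 replication genes (5.78% of tested genes), and with A20KIKO lower in 0 mitotic and 1 replication gene (4.79%).

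The level of the mitotic list, the mean over its genes of log2 CPM minus the A20WT mean, was 0.58, 0.12, 0.15 and 0.44 in A20KIKO mice 1 to 4 and 0.11, -0.06, -0.03 and -0.02 in A20WT mice 1 to 4. The groups did not overlap, but A20KIKO mice 2 and 3 stood just above A20WT mouse 1, and A20KIKO mice 1 and 4 stood well above the other 6 libraries. The group means differed by 0.32, with an SD of 0.22 in the A20KIKO and 0.08 in the A20WT libraries (n = 4 each). Without A20KIKO mouse 1 the median log2 change of the mitotic genes was 0.24, with 22 of 24 above 0. No test is given for the list, whose members were named with earlier results of these data known.

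**Figure D1:**
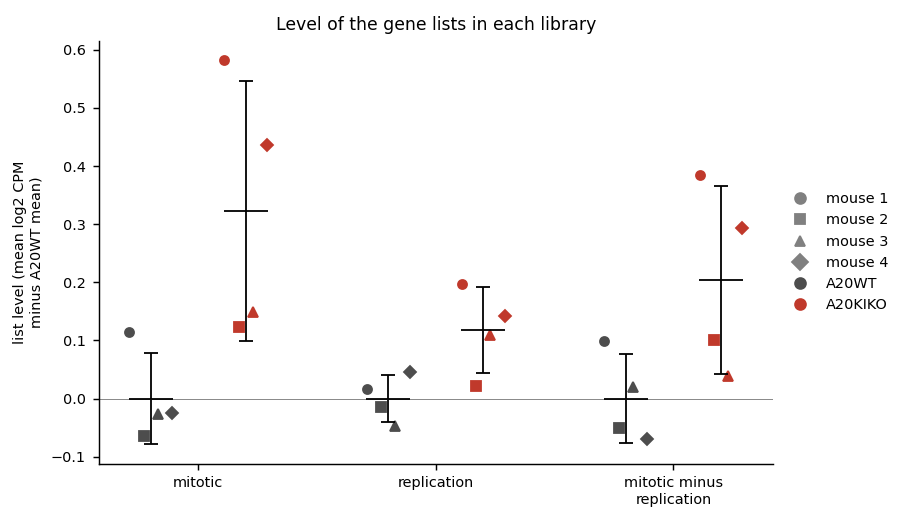
Level of the mitotic list, of the replication list and of their difference in each library (vertical axis: log2 units, mean over the genes of log2 CPM minus the A20WT mean); points are libraries with a symbol per mouse number, horizontal bars are means and error bars are SD, n = 4 per group. The mitotic level of A20KIKO mice 1 and 4 (0.58 and 0.44) lies above all other libraries, while the replication levels of the groups overlap.

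The widest mitotic differences were in Kif11, the kinesin that pushes the spindle poles apart, and Top2a, the topoisomerase that untangles the copied chromosomes. Kif11 (ENSMUSG00000012443, chromosome 19, 37376403 to 37421859 in GRCm38) had 28.7, 19.3, 25.2 and 24.9 CPM in A20KIKO mice 1 to 4 and 12.2, 15.9, 19.1 and 16.5 CPM in A20WT mice 1 to 4. The groups just failed to meet, with A20KIKO mouse 2 at 19.3 and A20WT mouse 3 at 19.1, and the log2 change was 0.62 (SE 0.16, 95% interval 0.27 to 0.98, adjusted p = 0.0604). Top2a (ENSMUSG00000020914, chromosome 11, 98992943 to 99024189) had 73.3, 47.6, 61.0 and 62.1 CPM in the A20KIKO and 39.2, 44.5, 43.7 and 42.8 CPM in the A20WT mice. All 4 A20KIKO values were higher than all 4 A20WT values, with A20KIKO mouse 2 closest to the controls. Its log2 change was 0.52 (SE 0.13, 95% interval 0.23 to 0.81, adjusted p = 0.0558), the smallest adjusted p of the 41 genes. Without A20KIKO mouse 2 both passed the test, Top2a at an adjusted p of 0.0160 and Kif11 at 0.0309, and without A20KIKO mouse 1 these were 0.202 and 0.206. With A20WT mouse 1 left out, the log2 change of Kif11 was 0.52 and that of Top2a 0.48 (adjusted p = 0.0791 each).

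Among the cyclins and kinases that drive entry into mitosis, Ccna2 (cyclin A2) was the most regular. It had 49.4, 36.1, 36.8 and 43.4 CPM in the A20KIKO mice and 29.8, 30.1, 32.7 and 29.7 CPM in the A20WT mice, with no overlap (log2 change 0.44, SE 0.13, adjusted p = 0.0920). An exonic stretch amounting to 12.5% of the exon length of Ccna2 lies opposite to Exosc9, and without strand information reads there cannot be assigned. Ccnb1 (cyclin B1) had 85.1, 69.9, 53.5 and 79.0 CPM against 66.0, 55.2, 59.8 and 55.4 CPM, so A20KIKO mouse 3 was the lowest of all 8 libraries. Its log2 change was 0.28 (SE 0.14, 95% interval -0.03 to 0.59, adjusted p = 0.380). Cdk1, the kinase that both cyclins activate, had 56.4, 45.0, 41.4 and 45.5 CPM against 53.9, 31.6, 31.7 and 35.3 CPM. A20WT mouse 1 was thus far above its group, and the log2 change of 0.30 (SE 0.18, adjusted p = 0.470) became 0.52 without it (adjusted p = 0.0414). Ccnb2 (cyclin B2) showed the same, with 51.6 CPM in A20WT mouse 1 and 28.0 to 35.4 CPM in the other 3 controls (log2 change 0.32, and 0.51 without that library). Plk1, the polo kinase of mitotic entry, had 22.3 to 36.1 CPM in the A20KIKO and 20.4 to 26.6 CPM in the A20WT libraries (log2 change 0.38). Foxm1, the transcription factor of this gene set, had 16.9 to 23.8 and 13.9 to 17.6 CPM, with an overlap between A20KIKO mouse 3 and A20WT mouse 2 (log2 change 0.41, adjusted p = 0.164).

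**Figure D2:**
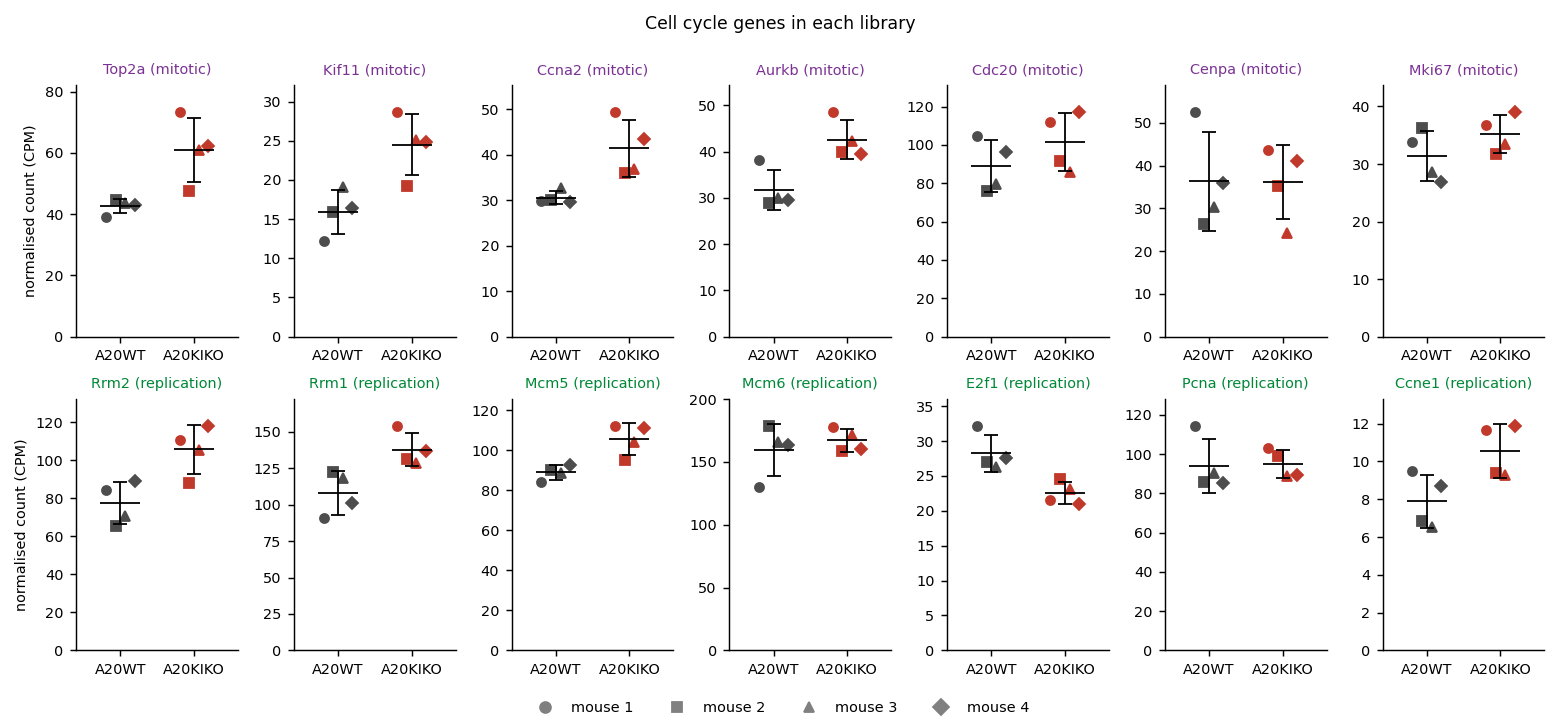
Normalised counts (vertical axes: CPM, each from 0) of 14 of the 41 genes in each library; points are libraries with a symbol per mouse number, horizontal bars are means and error bars are SD, n = 4 per group. Top2a, Kif11, Ccna2, Aurkb, Rrm1 and Mcm5 have every A20KIKO library above every A20WT library, E2f1 has every one below, and Cenpa, Pcna and Mcm6 overlap widely.

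Aurkb, Tpx2, Kif23, Prc1, Aurka, Kif20a and Nusap1, further genes of the spindle and of cytokinesis, had log2 changes of 0.21 to 0.43. Aurkb, the kinase of the chromosomal passenger complex, had 48.5, 39.9, 42.4 and 39.5 CPM in the A20KIKO mice and 38.2, 28.9, 29.96 and 29.5 CPM in the A20WT mice. All A20KIKO values exceeded all A20WT values, A20WT mouse 1 being the highest control, and the log2 change was 0.43 (SE 0.13, 95% interval 0.15 to 0.71, adjusted p = 0.107). Without A20WT mouse 1 the log2 change was 0.53 and Aurkb passed the test (adjusted p = 0.0192). Tpx2, which activates the spindle kinase Aurora A, had 28.9 to 35.5 CPM against 24.5 to 25.8 CPM with no overlap (log2 change 0.37, adjusted p = 0.109). Kif23, a kinesin of the cytokinesis midzone, had 27.6 to 41.2 against 22.3 to 25.9 CPM, also with no overlap (log2 change 0.41, adjusted p = 0.158). Its partner Prc1, which bundles midzone microtubules, had 39.3 to 59.4 against 31.1 to 41.8 CPM and overlapped (log2 change 0.37, or 0.28 without A20WT mouse 1). Aurka, the Aurora A kinase, and Kif20a, a kinesin of cytokinesis, had log2 changes of 0.34 and 0.27, and Nusap1, a microtubule stabiliser, 0.21. Kif20a shares 29.3% of its exon length with Cdc23 on the opposite strand, so its counts are uncertain. Its log2 change was 0.15 without A20WT mouse 1.

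Genes of the spindle checkpoint and of mitotic exit overlapped between the groups. The spindle checkpoint kinases Bub1 and Bub1b had log2 changes of 0.44 and 0.34, with 6.13 to 9.76 against 4.87 to 6.65 CPM for Bub1 and 30.02 to 44.2 against 21.2 to 32.1 CPM for Bub1b. In both genes A20WT mouse 1 was the lowest of the 8 libraries, and without it the log2 changes fell to 0.35 and 0.22. Cdc20, which activates the anaphase-promoting complex, had 112, 91.4, 86.0 and 117 CPM in the A20KIKO mice and 105, 76.1, 79.7 and 96.1 CPM in the A20WT mice. The groups were interleaved and the log2 change was 0.19 (SE 0.14, 95% interval -0.11 to 0.49, adjusted p = 0.587). Ube2c, the ubiquitin-conjugating enzyme of that complex, had 44.3 CPM in A20WT mouse 1, 22.2 to 27.9 CPM in the other controls and 29.7 to 50.9 CPM in the A20KIKO mice (log2 change 0.36, or 0.59 without A20WT mouse 1).

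Cenpa, Cenpf and Mki67 had the smallest log2 changes of the mitotic genes. Cenpa, the centromeric histone variant, had the lowest log2 change of the list, -0.01 (SE 0.23, 95% interval -0.50 to 0.48, adjusted p = 0.991), from 43.8, 35.3, 24.2 and 41.02 CPM in the A20KIKO mice and 52.5, 26.4, 30.3 and 36.0 CPM in the A20WT mice. The highest of its 8 values was A20WT mouse 1 and the lowest A20KIKO mouse 3. Without A20WT mouse 1 its log2 change was 0.22. Cenpf and Cenpe, large kinetochore proteins, had log2 changes of 0.08 and 0.32, and Birc5, the survivin of the passenger complex, 0.23. Birc5 had 65.3 CPM in A20WT mouse 1, above all 7 other libraries (29.4 to 60.0 CPM), and without that library its log2 change was 0.55. Mki67 had 36.8, 31.7, 33.4 and 39.0 CPM in the A20KIKO mice and 33.7, 36.3, 28.6 and 26.9 CPM in the A20WT mice. These groups overlapped, and the log2 change of 0.17 had a 95% interval of -0.12 to 0.45, so a rise of 1.37-fold or a small fall were both within its error.

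**Figure D3:**
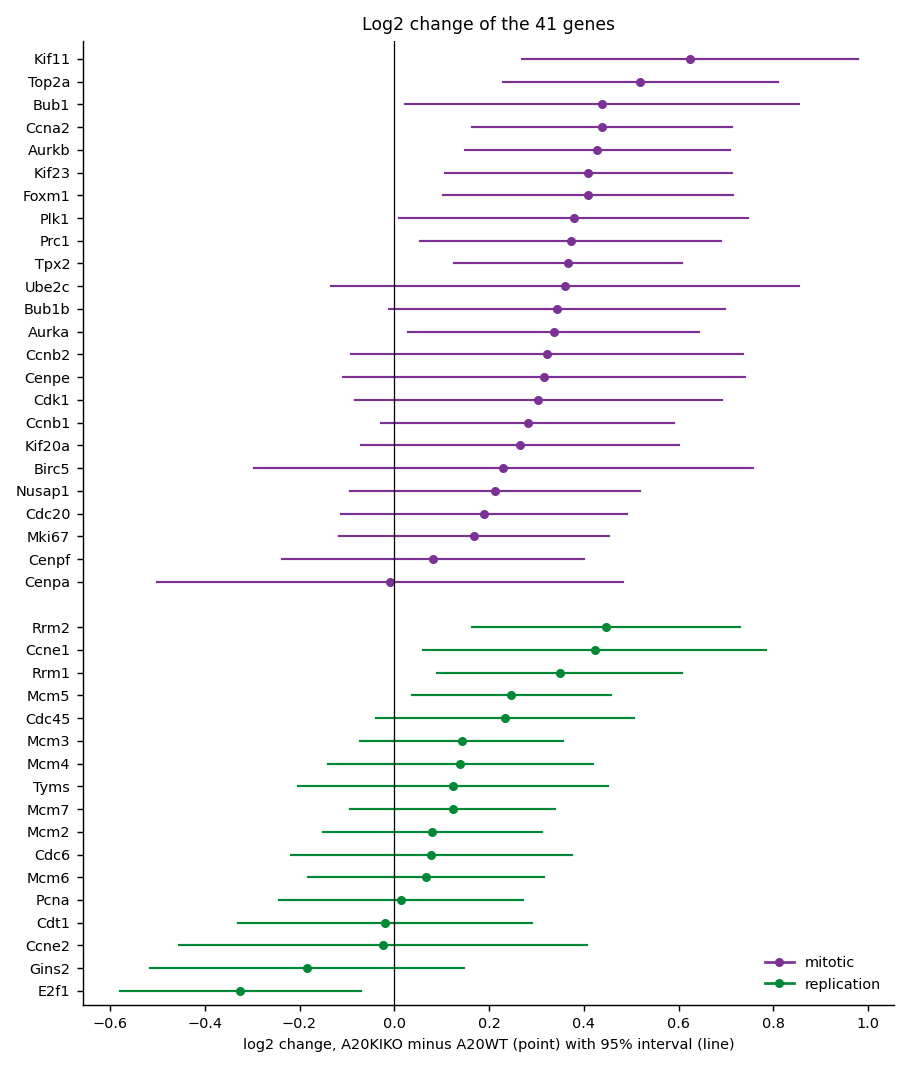
Log2 change of each of the 41 genes (horizontal axis: A20KIKO minus A20WT, edgeR) with its 95% interval, ordered within the mitotic and the replication list. All mitotic points but that of Cenpa lie above 0, from 0.08 to 0.62, while the replication points run from -0.32 (E2f1) to 0.45 (Rrm2).

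The high and low values of A20WT mouse 1 differed by transcript length. The median principal transcript of the 41 genes was 3031 bases. Of the 20 shorter genes, 15 were higher in A20WT mouse 1 than the mean of A20WT mice 2 to 4, with a median ratio of 1.21. Of the 21 genes at or above that length, 14 were lower, with a median ratio of 0.929. The shortest genes Birc5 (947 bases) and Ube2c (967 bases) had ratios of 1.99 and 1.70, and Kif11 (4819 bases) and Bub1b (3668 bases) had 0.709 and 0.679. Of the 21 longer genes, 7 went against this pattern. Highest were Cdk1, Tyms, Gins2 and Cenpe, with ratios of 1.64, 1.49, 1.43 and 1.402 at annotated lengths of 4375, 3163, 3900 and 7910 bases. The longest genes, Cenpf and Mki67, were also above 1 (1.18 and 1.10). The part of transcript length in the differences between the groups was examined with an offset for each library's length trend, an alternative added after the data were seen. With it the median log2 change was 0.34 for the mitotic genes, as without it, and 0.08 for the replication genes, against 0.12 without it, and 5 of the 41 genes passed the test as higher, where 4.83% of tested genes were called. These were Top2a (adjusted p = 0.0425), Kif11 (0.0222), Aurkb (0.0270), Rrm1 (0.0479) and Rrm2 (0.0393). Leaving A20WT mouse 1 out without any offset gave a mitotic median of 0.38, with all 24 genes above 0, and 2 called members, Aurkb and Cdk1, beside 3.17% of tested genes.

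**Figure D4:**
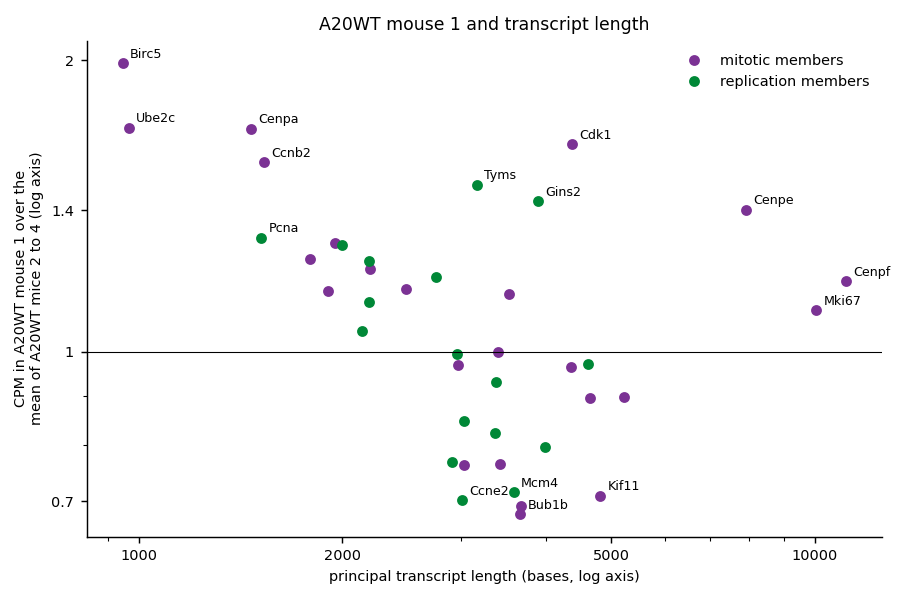
Ratio of the CPM in A20WT mouse 1 to the mean of A20WT mice 2 to 4 (vertical log axis) against principal transcript length (horizontal log axis, bases), 1 point per gene. Short genes such as Birc5 (ratio 1.99) and Ube2c (1.70) lie above 1, and most genes of 3 to 5 kilobases lie below, down to 0.679 for Bub1b.

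The median log2 change of the replication genes was 0.12, or 1.09-fold, with 13 of 17 above 0 and 4 below, and 0 were called. The level of the list was 0.20, 0.02, 0.11 and 0.14 in A20KIKO mice 1 to 4 and 0.02, -0.01, -0.05 and 0.05 in A20WT mice 1 to 4. A20KIKO mouse 2 lay among the controls, and without A20KIKO mouse 1 the median was 0.07. Those with the smallest p-values were the subunits of ribonucleotide reductase, the enzyme that makes deoxynucleotides. Rrm2, the S-phase-restricted small subunit (ENSMUSG00000020649, chromosome 12, 24708241 to 24714146), had 111, 88.1, 106 and 118 CPM in the A20KIKO mice and 84.5, 65.6, 70.8 and 89.1 CPM in the A20WT mice. A20KIKO mouse 2 lay just under A20WT mouse 4, and the log2 change was 0.45 (SE 0.13, 95% interval 0.16 to 0.73, adjusted p = 0.0958). Rrm1, the large subunit, had 154, 131, 129 and 137 CPM against 90.9, 123, 118 and 101 CPM. These groups did not overlap (log2 change 0.35, SE 0.12, adjusted p = 0.160), and without A20WT mouse 1 the log2 change was 0.27. Tyms, which makes thymidylate, had 47.6 to 58.3 CPM in the A20KIKO mice, 62.9 CPM in A20WT mouse 1 and 39.2 to 44.1 CPM in the other controls (log2 change 0.12, or 0.29 without A20WT mouse 1).

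The helicase that opens the DNA was nearly level between the groups. Mcm5 alone of its 6 subunits separated them, with 112, 94.98, 104 and 111 CPM in the A20KIKO mice and 84.2, 90.0, 88.9 and 92.9 CPM in the A20WT mice (log2 change 0.25, SE 0.10, adjusted p = 0.229). Mcm6 had 178, 159, 171 and 160.5 CPM against 130.2, 179, 166 and 164 CPM. Only A20WT mouse 1 was away from the rest, and the log2 change of 0.07 had a 95% interval of -0.18 to 0.32 (SE 0.11, adjusted p = 0.854). Mcm7 had 115, 113, 119.5 and 106 CPM against 104, 98.8, 96.8 and 118 CPM. Its A20KIKO values were the higher ones except for A20WT mouse 4, and the log2 change was 0.12 (SE 0.10, 95% interval -0.09 to 0.34, adjusted p = 0.636). Mcm2, Mcm3 and Mcm4 had log2 changes of 0.08, 0.14 and 0.14. A20WT mouse 1 held the lowest value of all 8 libraries in Mcm2, Mcm3, Mcm4, Mcm5 and Mcm6. With that library left out their log2 changes, in this order, were 0.02, 0.09, 0.03, 0.22 and -0.02. Of the helicase's partners, Cdc45 had a log2 change of 0.23 and Gins2 of -0.18, but 67.3% of the exon length of Gins2 lies opposite to Gse1, so its counts are uncertain. The loading factors Cdc6 and Cdt1 were at 0.08 and -0.02, and the sliding clamp Pcna at 0.01 (95% interval -0.24 to 0.27), with 88.8 to 103 CPM against 85.6 to 114 CPM.

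The regulators of G1/S went in different directions. Ccne1 (cyclin E1) had 11.7, 9.38, 9.29 and 11.9 CPM in the A20KIKO mice and 9.47, 6.83, 6.54 and 8.68 CPM in the A20WT mice, where A20WT mouse 1 overlapped the A20KIKO group (log2 change 0.42, SE 0.17, adjusted p = 0.233). Its paralog Ccne2 had a log2 change of -0.02 (95% interval -0.45 to 0.41), and 17.4% of its exon length lies opposite to Ints8. E2f1, the transcription factor that activates these genes and is itself one of them, had 21.6, 24.6, 23.1 and 20.9 CPM in the A20KIKO mice and 32.2, 27.0, 26.2 and 27.5 CPM in the A20WT mice. It was lower in all 4 A20KIKO mice than in any A20WT mouse, and its log2 change of -0.32 (SE 0.12, 95% interval -0.58 to -0.07) did not pass the test (adjusted p = 0.185).

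In A20KIKO mice 1 to 4 the level of the mitotic list minus that of the replication list was 0.38, 0.10, 0.04 and 0.29 log2 units, and in the A20WT libraries, by the same order of mice, it was 0.10, -0.05, 0.02 and -0.07. The group means of this difference were 0.20 ± 0.16 and 0 ± 0.08 (SD, n = 4 each). The 2 A20KIKO mice with the highest mitotic level, 1 and 4, also had the widest gap between the lists, while A20KIKO mouse 2 was level with A20WT mouse 1 and A20KIKO mouse 3 below it, so the groups overlapped. The gap was 0.14 to 0.26 when each library was left out in turn.

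Whether any member passed the test turned on the method. Of the 41 genes, DESeq2 called 6 as higher, where it called 6.25% of the genes it tested: Kif11, Top2a, Ccna2, Tpx2, Aurkb and Rrm2, with adjusted p of 0.0103 to 0.0457. With sample weights, limma-voom called 6 as higher, beside 6.73% of genes: Aurkb, Rrm2, Top2a, Ccne1, Cdk1 and Tpx2, with adjusted p of 0.00798 to 0.0354. Without weights limma-voom called 0. Without a count filter edgeR called Kif11 and Top2a, beside 2.24% of genes. None of these methods called a member lower.

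The wider cell cycle was covered by 14 further lists of 237 genes, of which 234 were tested. In them 5 genes rose and 1 fell, 2.56% of the tested, beside the 3.49% over all genes. Mybl2, the B-Myb subunit that joins MuvB to activate mitotic genes, rose from 10.9, 8.45, 8.51 and 9.67 CPM in the A20WT mice to 15.7, 11.9, 15 and 16.5 CPM in the A20KIKO mice. The groups did not overlap (log2 change 0.65, SE 0.15, adjusted p = 0.0309). Tfdp2, a dimerisation partner of E2F, fell from 29.3, 35.8, 35.1 and 29.4 CPM to 21.6, 23.9, 21.3 and 24.7 CPM, again without overlap (log2 change -0.50, SE 0.12, adjusted p = 0.0404). Ncaph, a subunit of the condensin that compacts mitotic chromosomes, had means of 18.7 ± 0.341 CPM in the A20WT and 25.8 ± 2.04 CPM in the A20KIKO libraries (SD, n = 4 each) and also rose (log2 change 0.46, adjusted p = 0.0392). These calls were near the threshold: when 1 library was left out, Mybl2 lost its call in 6 of 8 cases (adjusted p up to 0.112), Tfdp2 and Ncaph in 7 of 8 (up to 0.147 and 0.155), and with the length offset Mybl2 had an adjusted p of 0.0647. The kept cases were those without A20KIKO mouse 2 or A20WT mouse 1 for Mybl2 and without A20WT mouse 1 for the other two genes. The other E2F, RB and MuvB genes did not pass, among them the late repressors E2f7 and E2f8, with log2 changes of 0.65 and 0.52 (adjusted p = 0.299 and 0.226).

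Of 29 further spindle, kinesin and cytokinesis genes, 26 had a log2 change above 0, with a median of 0.23, and edgeR called 0. Kif15, a kinesin that backs up Kif11, had 8.01, 5.30, 8.41 and 6.52 CPM against 3.41, 4.43, 4.77 and 4.98 CPM (log2 change 0.68, adjusted p = 0.0897), and the spindle protein Spag5 had a log2 change of 0.52 (adjusted p = 0.0930). Neither overlapped between the groups. DESeq2 called both (adjusted p = 0.0172 for Kif15 and 0.0223 for Spag5), and limma-voom with sample weights called Kif15 (0.0492). Of 25 kinetochore genes 17 were above 0 (median 0.15), with Nuf2 and Cenpn at 0.40 and 0.41. Of 23 checkpoint and anaphase-promoting complex genes 14 were above 0 (median 0.06), with Trip13 at 0.37 and Mad1l1 at 0.27, and of 16 condensin and cohesin genes 12 were (median 0.14).

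Of 25 replisome genes 19 were above 0, with a median of 0.06 and no gene beyond 0.23 in either direction. The polymerase delta subunits Pold2 and Pold3 were at 0.23 and 0.21. Of 10 origin licensing genes 8 were above 0 (median 0.04). Mcm10, which helps to start forks, was higher in all 4 A20KIKO mice (9.32 to 10.9 against 6.13 to 9.04 CPM, log2 change 0.51, adjusted p = 0.127), and Orc6, an origin recognition subunit, was lower in all 4 (27.3 to 30.6 against 33.9 to 45.3 CPM, log2 change -0.40, adjusted p = 0.113). DESeq2 called both (adjusted p = 0.0494 for Mcm10 and 0.0454 for Orc6), and weighted limma-voom called Mcm10 (0.0310). Of 12 nucleotide supply genes 7 were above 0 (median 0.02), with Gart at 0.31. Samhd1, a deoxynucleotide hydrolase that interferon induces, had 50.2, 26.3, 31.9 and 82.9 CPM against 19.0, 15.8, 21.6 and 21.01 CPM. Its log2 change was 1.31 (SE 0.32, adjusted p = 0.0633), and it passed without A20KIKO mouse 2, 3 or 4 (0.00873, 0.0451 and 0.0402), and also by DESeq2 (0.000193) and weighted limma-voom (0.0354). Of 10 S-phase chromatin genes 7 were above 0 (median 0.13), with Uhrf1 at 0.25 and Asf1b at 0.20. Of 14 cyclin D and interphase kinase genes 8 were above 0 (median 0.03), with Ccnd3 at 0.24 and Wee1 at -0.19.

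**Figure D5:**
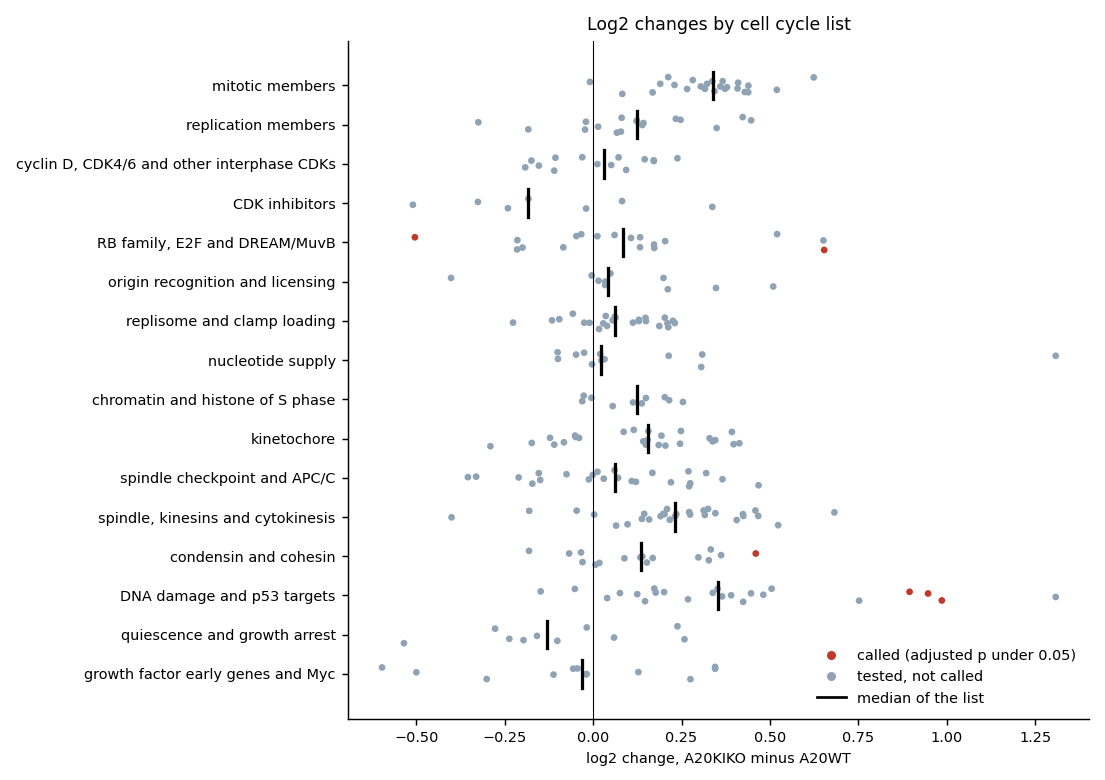
Log2 change (horizontal axis: A20KIKO minus A20WT) of every tested gene of the 2 member lists and the 14 wider lists; points are genes, red where called at an adjusted p under 0.05, and black bars are list medians. The medians of the mitotic list (0.34), the spindle list (0.23) and the p53 list (0.35) lie furthest above 0, and 6 genes are called.

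The brakes of the cycle moved unevenly. The kinase inhibitor Cdkn1a (p21), a target of p53, had 895, 1043, 1055 and 756 CPM in the A20KIKO mice and 957, 610.2, 633 and 769 CPM in the A20WT mice. The groups overlapped through A20KIKO mouse 4 and A20WT mouse 1 (log2 change 0.34, SE 0.17, adjusted p = 0.366), although weighted limma-voom called it (0.0303). Of the 7 tested inhibitor genes 5 were below 0, with Cdkn1c (p57) at -0.51 (adjusted p = 0.345). Of 23 DNA damage and p53 genes, 21 had a log2 change above 0, the median was 0.35, and 3 rose and 0 fell. Ccng1, a cyclin induced by p53, had 61.3, 63.4, 63.4 and 52.9 CPM in the A20KIKO and 22.7, 34.9, 36.2 and 27.9 CPM in the A20WT mice. It rose without overlap (log2 change 0.99, SE 0.15, adjusted p = 0.00331). Plk2, a polo-like kinase induced by stress, rose from 43.5 ± 9.54 to 80.8 ± 5.68 CPM (log2 change 0.89, adjusted p = 0.00702). Pmaip1 (Noxa), a killer protein of the Bcl-2 family, rose from 6.37 ± 1.09 to 12.3 ± 2.85 CPM (log2 change 0.95, adjusted p = 0.0158). Its adjusted p was 0.0576 without A20KIKO mouse 1 and 0.0504 without A20WT mouse 4. Ccng1 and Plk2 passed whichever library was left out. The level of this list was 0.38 to 0.46 in the A20KIKO and -0.08 to 0.06 in the A20WT libraries, with an SD of 0.04 and 0.06, where the mitotic list had 0.22 and 0.08.

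edgeR called no growth or quiescence gene. Of 12 growth factor early genes and Myc-related genes, 4 were above 0 and 8 below (median -0.03). Myc, the growth-promoting transcription factor, had 235 to 279 CPM in the A20KIKO and 199.5 to 222 CPM in the A20WT libraries (log2 change 0.28, adjusted p = 0.206, or 0.0476 with weighted limma-voom), and its partner Max was at -0.30. Of 10 quiescence and growth arrest genes 7 were below 0, with Klf9 at -0.54 and the cyclin Ccng2 at -0.24 (adjusted p = 0.251 each). Klf9 had 77.1 CPM in A20WT mouse 1 and 38.0 to 47.5 CPM in the other controls. Its groups overlapped, and without that library its log2 change was -0.27.

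Markers of other cells that could hold dividing cells were read beside these results. The monocyte and macrophage list was higher in the A20KIKO libraries, with levels of 2.17, 0.84, 1.604 and 2.50 in mice 1 to 4 and -0.27 to 0.27 among the controls. Of its 12 markers 9 were tested, and C1qa, C1qb, C1qc and Ly6c2 rose. C1qa, a complement subunit of macrophages, rose from 1.36 ± 0.439 to 6.19 ± 2.06 CPM (adjusted p = 0.00184), and C1qb, its partner chain, from 0.556 ± 0.193 to 7.61 ± 4.55 CPM (adjusted p = 0.00227). The summed level stayed low, at 106 to 182 CPM in the A20KIKO and 64.9 to 105 CPM in the A20WT libraries. Much of that sum was Csf1r, which was not called (72.8 to 88.35 CPM in the A20KIKO and 39.5 to 77.9 CPM in the A20WT libraries). Cd14 added 52.35 CPM in A20KIKO mouse 4 and 2.70 to 5.65 CPM elsewhere. Mrc1, Fcgr1 and Ms4a7 had too few counts to be tested. A20KIKO mice 1 and 4 had the highest levels of both this list and the mitotic list, and A20KIKO mouse 2 the lowest of the group in both. The 11 epidermal T cell markers in the files summed to 160 to 165 CPM in the A20KIKO and 152 to 186 CPM in the A20WT libraries. The level of that list was 0.43, -0.01, 0.31 and 0.62 in A20KIKO mice 1 to 4, again highest in mice 1 and 4 and lowest in mouse 2, and -0.31 to 0.47 in the overlapping controls. Of these markers Cd8a, Cd4 and Gzmb had log2 changes of 1.46, 1.06 and 1.34 with overlapping groups (adjusted p = 0.288, 0.420 and 0.430), and the other 8 lay at -0.15 to 0.23. The Langerhans cell list had 0.43, 0.15, 0.17 and 0.29 in A20KIKO mice 1 to 4, the order of the mitotic list. Also highest in mice 1 and 4 were the suprabasal (-0.13 and -0.12), hair follicle (0.17 and 0.29) and neutrophil lists (1.65 and 6.19). In each of these lists the groups overlapped. The basal, hair matrix, sebaceous, melanocyte, fibroblast and endothelial lists were not highest in those mice. The melanocyte list had levels of 1.17, 1.85, 0.71 and -0.04 in the A20KIKO mice and -0.24 to 0.16 in the controls, with none of its 8 markers called. The fibroblast list had -1.12, -0.07, -1.71 and -1.19 against -0.27 to 0.35, with none of its 7 tested markers called. The 10 hair matrix markers summed to 52.9 to 70.5 and 63.9 to 87.9 CPM, and their level was highest in A20KIKO mouse 1 (1.201) and A20WT mouse 1 (1.11). The neutrophil markers summed to 23.3 to 2941 CPM in the A20KIKO libraries, with mouse 4 highest, and to 5.82 to 38.5 CPM in the A20WT libraries, and Elane was at 0 in all. Basal keratinocyte markers had a level of -0.35 to -0.10 in the A20KIKO and -0.20 to 0.17 in the A20WT libraries. Krt5 fell from 6227 ± 575 to 3512 ± 133 CPM (adjusted p = 0.00272), while Krt14, its pairing partner, had 16900 ± 2530 CPM in the A20KIKO and 20570 ± 5099 CPM in the A20WT libraries (adjusted p = 0.537). Of the markers of other epidermal cells, the suprabasal Krt77 and Flg2 fell (log2 changes -0.83 and -0.90), and the sebaceous Elovl3 and the Langerhans cell gene H2-M2 rose (0.89 and 1.08), with adjusted p of 0.0165 to 0.0292. These 4 calls were near the threshold, while over all omissions of 1 library the log2 changes lay at -1.0 to -0.74 for Krt77, -1.05 to -0.75 for Flg2, 0.67 to 1.01 for Elovl3 and 0.84 to 1.22 for H2-M2. Krt77 lost its call in every omission but those of A20KIKO mouse 1 and A20WT mouse 3 (adjusted p up to 0.0866), Flg2 in those of A20KIKO mouse 3 and A20WT mice 1 to 3 (up to 0.123), Elovl3 without A20KIKO mouse 1 or any A20WT mouse (up to 0.0791), and H2-M2 without A20WT mouse 1 or 2 (up to 0.103). The part of these cells in the mitotic difference was not tested. Relative to the basal keratinocyte list, the mitotic and replication levels differed between the groups by 0.55 and 0.34.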

How the data were processed

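Raw counts per Ensembl gene identifier were deposited by the authors, per the file headers in 2 lane columns for each of 8 libraries. The submitters' processing notes name the tools HTSeq 0.6.1p1, Picard 1.139 and STAR 2.4.2a, and the builds GRCh38 and GRCm38.p5. No source used here gives the counting options or the annotation release. The labels state an average of 22000000 reads per sample, fewer than the counts in each library, and the reason was not tested. Per the labels' protocols, poly-adenylated RNA was copied and amplified with SMART-Seq v4 and tagmented with Nextera, which keeps neither strand nor molecular identifiers. The 4 libraries of a group came from separate mice.

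Lanes were summed. Positions and lengths came from GENCODE M21 (GRCm38), where 51719 of 51912 identifiers were found. The principal transcript is the longest coding transcript with the first APPRIS rank in the basic set, otherwise the longest coding one. Analysis used edgeR 4.0.16 in R 4.3.3: filterByExpr defaults (minimum count 10, total 15), TMM scaling, a robust quasi-likelihood fit with the group as its term, and Benjamini-Hochberg adjustment over all 16512 tested genes. SE is the absolute log2 change over the square root of F, and intervals are 95% from it. List levels use log2 CPM at a prior count of 2. Alternatives used DESeq2 1.42.0, limma-voom 3.58.1, other size factors and filters, thinning, the replicate number as a block and each library left out. A length offset (lowess, span 0.5, 31 genes without a length unchanged) and each lane alone were added after seeing the data. The fit was tested on simulated data.

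The members and lists were chosen with earlier results of these data known. Every member was accounted for, with full values for the 4 of smallest p, the 3 of highest mean CPM and the extremes of log2 change in each member list. Of each wider list up to 3 called genes were named, otherwise the 2 of smallest p, and of each cell type list up to 2 called genes, with Tnfaip3, Krt5 and Krt14 as checks. Any other gene named, such as E2f7, E2f8, C1qc, Ly6c2, Cd8a, Cd4 and Gzmb, was chosen after its values were seen.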

Additional observations from a re-analysis of the deposited data

Results flagged for a closer look

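In 6 of the 88 groups of 4 values examined, 1 library lay far from the other 3 of its group. Chance flags about 1 in 20 such groups. A20WT mouse 1 was the library in 4 of them. It was high in Cdk1 (53.9 CPM, others 31.6 to 35.3), in Aurkb (38.2 CPM, others 28.9 to 29.96) and in Pcna (114 CPM, others 85.6 to 90.4), and low in Mcm3 (68.6 CPM, others 80.1 to 81.3). A20WT mouse 3 was high in Ccna2 by a small amount (32.7 CPM, others 29.7 to 30.1). A20KIKO mouse 2 was low in Cdc6 (8.12 CPM, others 9.76 to 9.93).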

How the results depend on the processing

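List levels were computed with other size factors, at least 5 CPM in 4 libraries, thinning, the length offset and each library left out. In all of these the level of the mitotic list stayed above that of the controls, with a difference of 0.24 to 0.39 in the omissions. That of the replication list also stayed above, with 0.09 to 0.15 in the omissions. The gap between the lists was 0.14 to 0.26. Both levels moved beyond 1 SD relative to the basal keratinocyte list alone, to 0.55 and 0.34. The number of called members, 0 at first, was 6 with DESeq2 and with weighted limma-voom, 2 without a count filter, 1 in lane 1 alone (Ccna2), 5 with the length offset, 3 with that offset and without A20WT mouse 1, and 0 to 2 with each library left out. The number of called genes in all, 576, was 1171 with DESeq2, 1112 with weighted limma-voom, 374 with at least 5 CPM in 4 libraries, and 348 to 619 with each library left out. The lowest of these came without A20KIKO mouse 1, and 355 were called without A20WT mouse 3. The cause was not tested, except that the stricter filter tests fewer genes and each omission uses fewer samples. With the replicate number as a block 551 genes and 0 members were called, and Tfdp2 and Ncaph lost their calls (adjusted p = 0.0834 and 0.0985). The deviations of same-numbered mice correlated at -0.01 to 0.24, and only numbers 1 and 4 correlated best with their own. With 4 mice per group this cannot settle whether the numbers pair animals.

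Of the members' log2 changes under the alternatives, 32 had the other sign, in 8 genes. Cenpa went to 0.0208 (limma-voom), 0.191 (weighted), 0.00438 (block), 0.0312 (lane 1), 0.0553 (length offset) and 0.188 (offset without A20WT mouse 1), and lay at -0.134 to 0.222 over the omissions. Ccne2 went to 0.0189 (limma-voom), 0.0156 (thinned) and 0.0242 (lane 2), with -0.153 to 0.0827 over the omissions. Cdt1 went to 0.0161 (weighted), 0.00624 (lane 2) and 0.0566 (offset without A20WT mouse 1), with -0.122 to 0.0667 over the omissions. Over the omissions Pcna lay at -0.0292 to 0.122, Mcm6 at -0.0186 to 0.126 and Cenpf at -0.0522 to 0.148. Mcm6 was at -0.00406 with the offset and without A20WT mouse 1, Cenpf at -0.000878 and Cdc6 at -0.0127 in lane 2, and Gins2 at 0.0289 with weights. Bub1, Ccne1, Ccne2 and Cdc6 had the fewest counts, under 12 CPM in each library.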
